A study of Drosophila melanogaster with 4 samples.

Results

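The regions described here were 1113 autosomal peaks of open chromatin that took a larger share of the ATAC counts in germ nuclei than in nuclei of somatic gonadal precursors (SGPs) of the *Drosophila melanogaster* embryo. They were chosen on measured values. Nuclei with at least 1000 ATAC counts were called germ if *nos*, *vas*, *pgc*, *zpg*, *aub*, *AGO3*, *gcl*, *ovo* and *tej* together had at least 5 unique molecular identifiers (UMIs) and at least 3 times the UMIs of *tj*, *eya*, *Six4* and *Wnt2*, and SGP if the latter genes had at least 2 UMIs and no fewer than the germ genes. A peak on 2L, 2R, 3L or 3R became a member when both pools together held at least 30 of its counts and its pooled counts per 1000000 (CPM) plus 5 were at least 2-fold higher in germ nuclei. Of 19437 peaks in the data, 16245 were autosomal and 16236 passed the count minimum, so that members made up 6.86% of the peaks tested. In the opposite direction 414 peaks, 2.55% of those tested, were at least 2-fold higher in SGP nuclei, and 14709 lay within 2-fold.

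The nuclei came from embryos of the genotype vas-GFP, in which GFP marks the germ line, collected in windows of 0 to 4, 4 to 8, 8 to 12, 12 to 16 and 16 to 20 h after egg laying, sorted for GFP and pooled into 1 multiome library that reads RNA and ATAC from each nucleus. Up to 12 h single germ cells were sorted, and from 12 to 20 h GFP-positive gonads were sorted and lysed whole, which is how SGP nuclei entered the library, so age and cell type cannot be told apart in a comparison of all germ with all SGP nuclei. The same genotype gave 2 libraries of scRNA-seq, one from embryos up to 8 h of age and one from older embryos up to 20 h. Each library was 1 sample with no replicate, no cell barcode was shared among the 3 libraries (0 shared), and every interval of a ratio or share below is an exact 95% interval that covers counting error only.

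The germ pool held 721 nuclei with 5697855 ATAC counts (median 4753 per nucleus), the SGP pool 97 nuclei with 733242 (median 3990), and the 1011 remaining nuclei of that depth, called other here, 4710386. Germ markers summed to 1109 CPM of RNA in germ nuclei, 240 in SGP nuclei and 486 in other nuclei, and all 9 had UMIs in each pool. The 4 SGP markers summed to 80.2, 623 and 203 CPM. Other nuclei also held more muscle RNA (317 CPM of 8 markers, against 107 in germ and 100.3 in SGP nuclei) and more epidermal RNA (312 CPM, against 29.4 and 8.29), so the other nuclei were a mixture, whereas the germ and SGP pools had been drawn by the genes that name them.

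ATAC-seq marks DNA that a transposase can reach, chiefly promoters and enhancers from which nucleosomes have been cleared. The germ line of the fly is set aside at the posterior pole of the embryo with maternal RNA and starts its own transcription later than somatic cells, then joins the SGPs to form the gonad. Among proteins that act on its genes, Zelda (Zld) is the pioneer factor that opens enhancers when the zygotic genome is first used, and Ovo is a zinc-finger factor of the germ line.

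The letters CAGGTAG, at the core of the Zld motif, were in 58 members and in 0 of the 414 peaks higher in SGP nuclei, with the shares given below. The stretches printed here for that reason come from the members with at least 200 counts and these letters that had the highest ratio, with 40 bases on either side, or 10 where an annotated untranslated region lay closer. They were read from the BDGP6 reference genome on the plus strand from 5′ to 3′, and capitals mark the letters on either strand. The members lay at the start of *Gsc*, which encodes a homeodomain protein (chr2L:587759-587845), between genes 10778 bases from the start of *lncRNA:CR45365* (chr2L:8841888-8841974), at a U4 spliceosomal RNA gene inside an intron of *sick* (chr2L:19810548-19810634), at the start of *lncRNA:CR44677* (chr3L:19556834-19556920), at the start of the piRNA pathway gene *AGO3* (chr3L:23554854-23554880), in a coding exon of *RhoGAP100F* (chr3R:31834269-31834355) and in a coding exon at the start of the ribosomal protein gene *RpS5b* (chr3R:14901213-14901299), which was added as a listed gene.
Gsc: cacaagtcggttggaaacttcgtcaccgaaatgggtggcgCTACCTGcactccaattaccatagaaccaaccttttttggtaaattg
lncRNA:CR45365: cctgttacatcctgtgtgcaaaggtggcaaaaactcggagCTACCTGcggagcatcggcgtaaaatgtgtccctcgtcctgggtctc
snRNA:U4:38AB: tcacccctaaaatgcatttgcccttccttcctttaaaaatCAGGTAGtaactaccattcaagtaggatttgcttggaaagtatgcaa
lncRNA:CR44677: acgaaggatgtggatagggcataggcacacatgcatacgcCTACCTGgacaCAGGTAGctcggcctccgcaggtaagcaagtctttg
AGO3: tacaagtataCAGGTAGtttgtgtcta
RhoGAP100F: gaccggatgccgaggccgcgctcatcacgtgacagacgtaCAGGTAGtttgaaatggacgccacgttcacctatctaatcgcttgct
RpS5b: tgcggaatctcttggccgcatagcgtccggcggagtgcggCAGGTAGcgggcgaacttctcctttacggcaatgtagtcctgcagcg

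The letters TAACNGT, at the core of the Ovo motif, were also more frequent in members. They are shown for members that rank among the 10 with the highest ratio of those with at least 200 counts and for *qin* and *nos* among the listed genes, again with capitals on the matches. The windows lay between genes near *Eaf6*, which encodes a subunit of histone acetyltransferase complexes (chr3L:5612224-5612310), in an intron of the RNA-binding protein gene *Rbfox1* (chr3L:10507044-10507130), at 2 matches of a member in an intron of *CG14322* near *CG45045* (chr3R:17666205-17666291 and chr3R:17666294-17666380), at 2 matches at the start of the piRNA pathway gene *qin* (chr3R:18590844-18590930 and chr3R:18590992-18591018) and in the transcribed leader of *nos*, a translational repressor of the germ line (chr3R:19157224-19157250).
Eaf6: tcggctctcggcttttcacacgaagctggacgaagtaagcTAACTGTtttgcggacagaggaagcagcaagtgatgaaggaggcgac
Rbfox1: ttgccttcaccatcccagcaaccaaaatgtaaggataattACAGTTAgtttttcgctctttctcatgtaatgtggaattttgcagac
CG45045, first match: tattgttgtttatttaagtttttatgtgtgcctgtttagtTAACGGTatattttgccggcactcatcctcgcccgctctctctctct
CG45045, next match: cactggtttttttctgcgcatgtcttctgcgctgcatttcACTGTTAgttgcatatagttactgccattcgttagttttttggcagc
qin, first match: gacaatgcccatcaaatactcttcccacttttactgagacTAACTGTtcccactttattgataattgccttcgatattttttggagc
qin, next match: cgtgcttgaaTAACTGTtcttcgtgtg
nos: ctaagcaagaACCGTTAgttggcgcgt

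Most members were of low to middling height and lay near the threshold. Their median was 19.8 CPM in germ nuclei and 5.46 in SGP nuclei, against 26.0 and 23.2 over all peaks tested. The log2 ratio with 5 CPM added had a median of 1.22, with the middle 50% of members between 1.10 and 1.41 and a range of 1.00 to 3.08, and 21 members reached 4-fold. The SGP side rested on few reads, with a median of 4 counts a member, 507 members at 3 counts or fewer and 52 at 0, which allows up to 4.09 CPM. The lower bound of the ratio without added CPM was above 1 in 1110 members and above 2 in 108. Because the ratio chose the members, these values describe the choice and are no test of it. Just inside the threshold, at log2 ratios of 1.00, stood members at the starts of the ion exchanger gene *Ndae1* (153 counts in germ and 8 in SGP nuclei) and the antimicrobial peptide gene *AttD* (464 and 28), in a peak that also held the starts of *tRNA:Thr-AGT-1-6*, the nearest, and *tRNA:Thr-AGT-1-5*, and one 5530 bases from the start of *mod* (184 and 10). Just outside it stood 3 peaks with 44 counts in germ nuclei and 1 in SGP nuclei, in introns of *uif* and *stan* and at the start of *CG43667*.

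**Figure D1:**
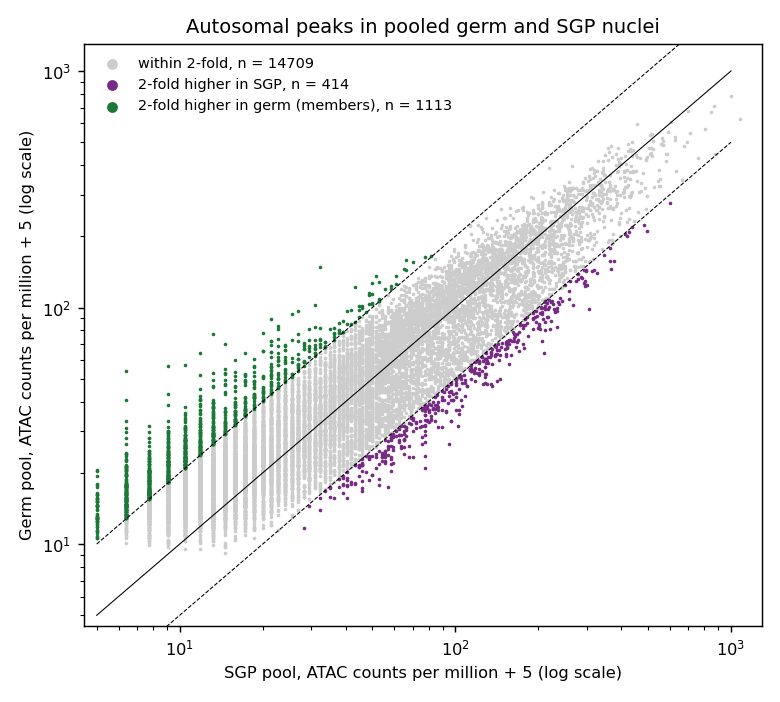
ATAC CPM plus 5 of the 16236 autosomal peaks tested, in pooled SGP nuclei (x axis) and pooled germ nuclei (y axis), both on log scales. The solid line marks equal values and the dashed lines 2-fold, members are green, peaks 2-fold higher in SGP nuclei purple, and the members crowd at the low end of the SGP axis, where single counts form columns.

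Among the 10 members with the highest ratio, the one leading was a coding exon of *CG15140* (chr2L:17286706-17287273), with 279 counts in germ nuclei and 1 in SGP nuclei, a ratio of 35.9 with an interval of 6.39 to 1423. A member 3879 bases from *Eaf6* (chr3L:5612000-5612359) had 203 counts and 1, and its ratio of 26.1 had an interval of 4.64 to 1037. With a single SGP count the size of either ratio was barely fixed. The member at a pair of glycine tRNA genes, *tRNA:Gly-GCC-1-7* and its neighbour (chr2L:14530544-14530981), had 293 and 3 counts (12.6, interval 4.26 to 61.3). One in an intron of *klu*, a zinc-finger gene, near *lncRNA:CR45745* (chr3L:10985592-10986169) had 412 and 6 counts (8.84, interval 4.03 to 24.2). An intron of *opa*, a pair-rule zinc-finger gene (chr3R:4858102-4859043), held a member with 339 and 5 counts (8.72, interval 3.70 to 27.0). A position inside or near a gene was all that tied these members to it.

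The remaining 5 of this rank had ratios from 5.24 to 9.52. They lay at the start of *CR43669* (296 and 4 counts), at the start of *CG3251* (218 and 3), in an intron of *Rbfox1* (371 and 7), in an intron of *CG14322* near *CG45045* (815 and 20) and in an intron of *JIL-1*, which encodes a histone H3 kinase (267 and 5). Level and ratio ranked members differently. Of the 5 members with the most germ CPM only the one near *CG45045*, at 143 CPM in germ and 27.3 in SGP nuclei, was also among the highest ratios. The others were at the starts of *nos* (159 and 76.4 CPM), *CG14322* with a pair of alanine tRNA genes (158 and 72.3), the RNA-binding protein gene *Rbp6* (154 and 61.4) and the Notch target *E(spl)m7-HLH* (151 and 65.5), at log2 ratios of 1.01 to 1.26.

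Most listed germ line genes had no member at their start, but several short lists held a larger share than all genes. Of all 7803 genes with a tested peak at their start, 347 had a member there, 4.45%, which is the background for the counts that follow. Of 8 germ markers with a tested peak at their start, 2 had a member there, *nos* (chr3R:19156438-19158061, 908 and 56 counts) and *AGO3* (chr3L:23554503-23555202, 264 and 9 counts, log2 1.57). The starts of *vas*, *zpg*, *aub*, *gcl* and *tej* had log2 ratios of 0.33 to 0.64, and the peak at *pgc*, whose product silences transcription in early germ cells, was lower in germ nuclei, at 57.4 against 114.6 CPM. Accessibility at the start thus ranked these genes differently from RNA, by which the pools had been drawn. In the piRNA pathway, which silences transposons, 3 of 23 genes with a tested start peak had a member, namely *AGO3*, *qin* (chr3R:18590846-18591070, 253 and 8 counts, log2 1.63) and *rhi*, the heterochromatin protein of piRNA clusters (479 and 12 counts, log2 2.06, on 2R). The median of the highest start peak over these 23 genes was 0.28 on the log2 scale, against 0.23 over all 7803 genes, and 0 of them was 2-fold higher in SGP nuclei.

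Of 7 ribosomal protein paralogs with a start peak, members lay at *RpL37b* (269 and 9 counts, log2 1.60) and *RpS5b* (155 and 8, log2 1.02). Of 4 germ cell genes from a list named by the study, members lay at *CG4415* (389 and 13 counts, log2 1.69) and *CG18605* (211 and 10, log2 1.17), and the study chose those genes on these libraries. Lists with 0 members at starts were the 12 gonadal soma transcription factors with a start peak, where 1 peak of *eya* was instead 2-fold higher in SGP nuclei, the 10 chromatin and motif-binding factors and the 6 paralogs of basal transcription factors. Germ plasm and germ cell genes had 1 of 13, again *nos*. With lists this short, counts of 0 or 1 are near the background of 4.45% and are no result about the lists.

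**Figure D2:**
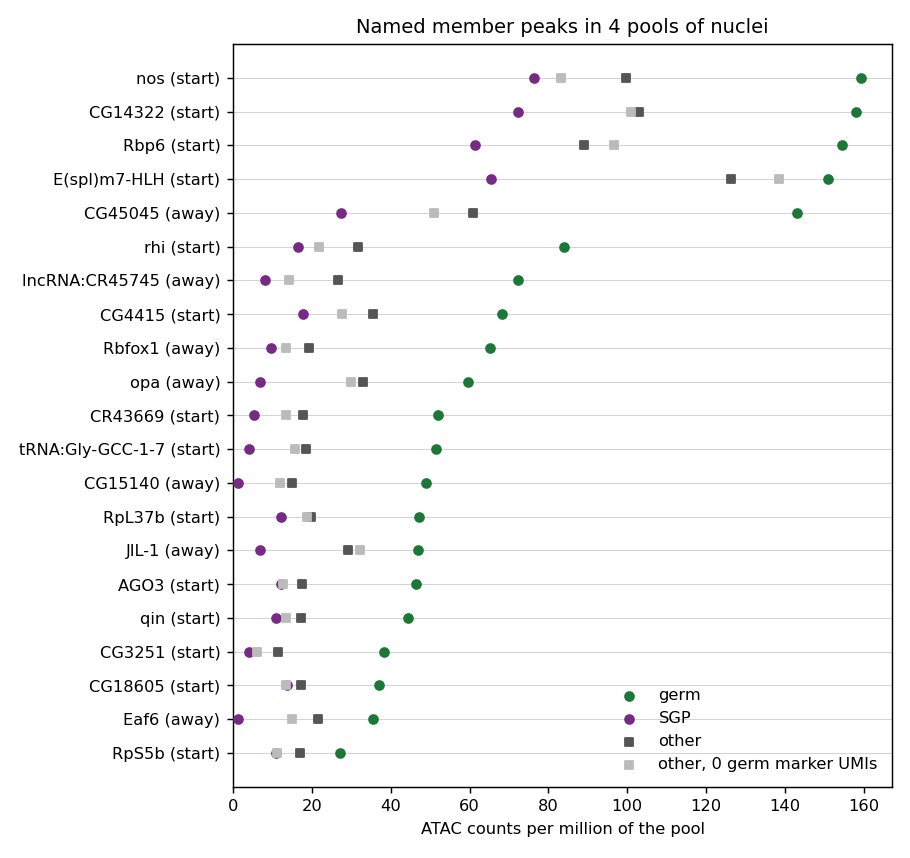
ATAC CPM (x axis, linear) of 21 named member peaks (those at the threshold and those shown only for their Zld letters are not plotted) in germ nuclei (green circles), SGP nuclei (purple circles), other nuclei (dark squares) and other nuclei with 0 UMIs of the germ markers (light squares), with the gene at or nearest the peak and whether it lay at a gene start. Each point is 1 pool of 1 library. In each of these 21 rows the germ value is the highest, which against SGP nuclei follows from the rule that chose the members. Some members that are not plotted had higher values in other nuclei than in germ nuclei.

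Within single nuclei, members took a larger share of all ATAC counts in germ nuclei than in SGP nuclei. The share had a median of 3.44% in germ nuclei (0.888 to 7.24%), 0.805% in SGP nuclei (0.411 to 2.94%) and 1.90% in other nuclei (0.616 to 6.73%). All 721 germ nuclei were above the SGP median, 507 were above the highest SGP nucleus, and 0 of 97 SGP nuclei reached the germ median. The members had been chosen on these nuclei, so the split between the pools is built in, but the choice did not set the spread within a pool. The other nuclei overlapped both pools. Their median share was 1.74% among the 390 without a germ marker UMI, 3.00% among the 89 with 3 and 3.52% among the 61 with 4, which the rule kept out of the germ pool. It fell to 1.70% among the 36 with 5 or more, which also carried SGP marker UMIs and had a median of 26180 ATAC counts.

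Nuclei below 1000 ATAC counts took no part in the rule. Summed over members, the 163 shallow germ nuclei had 3.42% of their 53937 counts in members (interval 3.27 to 3.57%), and the 30 shallow SGP nuclei 2.08% of 11739 (interval 1.83 to 2.35%), a ratio of 1.64 (interval 1.44 to 1.89). In the pools of the rule the same sums were 3.09% and 0.943%. The difference thus kept its direction in nuclei that had not been used but was smaller, and it depended on depth. The 22 SGP nuclei with fewer than 500 counts had a median share of 2.90%, the 8 with 500 to below 1000 counts 1.34% and deeper ones 0.800 to 0.851%, while germ nuclei stayed between 2.96 and 3.63% from one depth class to the next and the shallowest other nuclei reached 3.13%. Beside these shares, peaks at gene starts took 49.8% of the counts of the shallowest SGP nuclei and 48.5 to 53.6% of deeper ones. What part depth has in these shares was not tested. With 1 count worth 85.2 CPM in the shallow SGP pool, 903 members had none there, and single members could not be compared at this depth.

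**Figure D3:**
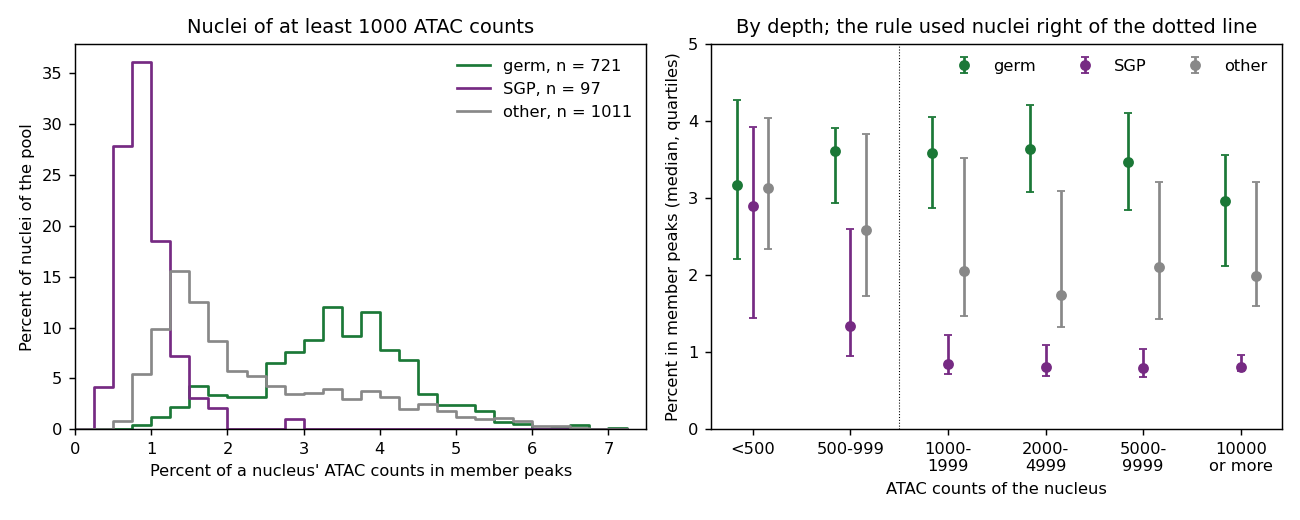
Left, the distribution over nuclei of the percent of a nucleus' ATAC counts that fell in member peaks, for 721 germ, 97 SGP and 1011 other nuclei. Right, the median and quartiles of the same percent by the ATAC counts of the nucleus. The quartiles of germ and SGP nuclei are apart from 500 counts up, with 8 SGP nuclei from 500 to below 1000 counts. The quartiles of other nuclei overlap the germ ones, and the medians draw together at 2.90 to 3.16% below 500 counts.

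Members were not open in germ nuclei alone. In other nuclei they held 23483 CPM in all, against 30882 in germ and 9432 in SGP nuclei. The germ pool exceeded the other nuclei by 1.315-fold (interval 1.305 to 1.325). At least 2-fold higher in germ than in other nuclei were 38 members (3.41%), against 0.253% of all peaks tested. Against the 390 other nuclei without germ marker UMIs the ratio was 1.38 (interval 1.36 to 1.39), and 118 members (10.6%) were at least 2-fold higher, against 1.29% of all peaks. Both comparisons reuse the germ counts that chose the members, so some excess was fixed by the choice. Some named members were at about the germ level or above it in other nuclei. That at *lncRNA:CR44677* had 46.2 CPM in germ nuclei, 55.4 in other nuclei and 54.6 in those without germ marker UMIs, and that at *snRNA:U4:38AB* had 44.6, 48.2 and 52.4. The medians over members were 0.27 and 0.33 on the log2 scale, against 0.06 and 0.07 over all peaks tested. By marker RNA, other nuclei with hemocyte genes had 2.11% of their counts in members (66 nuclei), with muscle genes 2.42% (86), with neuron genes 3.27% (24) and with epidermis and cuticle genes 3.51% (39). The last 2 groups thus reached the 3.09% of the germ pool, and SGP nuclei had the lowest share among all pools.

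Germ nuclei were further divided by RNA and by X-linked ATAC counts. Nuclei with more UMIs of *pgc*, a maternal RNA, than of *CG4415*, a gene of activated germ cells, numbered 129, and the reverse held in 430. Members summed to a 1.16-fold higher level in the *pgc*-high nuclei (interval 1.14 to 1.17), with a median log2 ratio of 0.21 over members and 0.05 over all peaks. Deep nuclei weigh most in these sums. Per nucleus the shares overlapped widely, with a median of 3.59% in *pgc*-high nuclei (quartiles 2.50 to 4.54%) and 3.41% in *CG4415*-high nuclei (quartiles 2.76 to 3.93%). There 30 members (2.70%) were at least 2-fold higher, against 0.721% of all peaks, and 1 (0.0898%) was at least 2-fold lower, against 0.216%. Several named members ran the other way. The member at *CG3251* had 20.4 CPM in *pgc*-high and 44.3 in *CG4415*-high nuclei, that in *JIL-1* 20.4 and 52.3, and the one at *CR43669* 32.7 and 56.8. For the 21 members at 4-fold or more the median was -0.30 (interval over members -0.45 to 0.04), against 0.21 for all members. Higher in *pgc*-high nuclei were instead the one at *E(spl)m7-HLH* (197 and 133 CPM) and the Zld-letter members at *snRNA:U4:38AB* (58.3 and 39.0) and near *lncRNA:CR45365* (58.3 and 26.2).

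By the ratio of X to autosomal counts, 244 germ nuclei were high-X (female-like), 222 low-X (male-like) and 255 neither, but the ratio was not clearly split and the classes are arithmetic, not sexes. Scaled to autosomal counts, members summed to 0.958 times as much in high-X as in low-X nuclei (interval 0.946 to 0.970), with a median log2 ratio of -0.12, and -0.075 over all peaks. At least 2-fold higher in high-X nuclei were 0 members, against 0.0985% of all peaks tested, and 15 (1.35%) were at least 2-fold higher in low-X nuclei, against 1.45%. The members were therefore near the background in both directions.

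Members lay less often at gene starts than peaks within 2-fold. Of the members 276 lay within 250 bases of an annotated start, 24.8% (interval 22.3 to 27.4%), against 39.5% of peaks within 2-fold (interval 38.7 to 40.3%) and 26.3% of those higher in SGP nuclei (interval 22.1 to 30.9%). Most of that gap went with peak height. Among peaks with 30 to below 100 counts the shares at starts were 11.7% of members and 11.8% of peaks within 2-fold, among those with 100 to below 300 counts 27.9% and 27.5%, and only with 300 counts or more did they part, at 52.5% of 139 members and 77.4%. Away from starts, 345 members had their centre in introns, 272 between genes and 191 in coding exons. Coding exons held 17.2% of members (interval 15.0 to 19.5%) and 14.3% of peaks within 2-fold, but only 4 of the 414 peaks higher in SGP nuclei (0.966%, interval 0.264 to 2.46%).

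Annotated transposons overlapped 46 members, 4.13% (interval 3.04 to 5.47%), against 1.80% of peaks within 2-fold (interval 1.59 to 2.03%). Of the 414 peaks higher in SGP nuclei 0 did, which allows up to 0.887%. The overlap was more frequent in members than in peaks within 2-fold in each class of height, at 2.11 against 0.893%, 5.47 against 2.02% and 5.04 against 2.36%. The families met most often were *INE-1* (11 members of 97 tested peaks) and *1360* (10 of 61). How the authors treated reads that fit several places was not stated in the sources, so counts within repeats are uncertain. Starts of tRNA genes, transcribed by RNA polymerase III, lay at 20 members, 1.80% (interval 1.10 to 2.76%), and 0.632% of peaks within 2-fold (interval 0.511 to 0.774%). Many tRNA genes are near-identical copies, which leaves those counts uncertain too.

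On the 4 arms the share of tested peaks that were members ran from 6.55 to 7.34%, with intervals that overlapped. Members tended to lie side by side. The next tested peak along the arm was also a member for 13.6% of members and 6.35% of other tested peaks. Another member lay within 10 kb of 317 members (28.5%), a share for which no background over other tested peaks was counted. The genes with most members in their body or at their start, picked after their counts were seen, were *Myo81F* (8 of 20 tested peaks), the Hox gene *Antp* (6 of 27) and *DIP-lambda*, an immunoglobulin-domain cell surface protein (6 of 8). *bru1*, a translational repressor in the germ line, had 4 of 12 and was also the one of these with the clearest RNA difference, at 257 CPM in germ and 19.6 in SGP nuclei. In contrast *Eip75B*, with 4 of 34, had less RNA in germ than in SGP nuclei, at 112 against 303 CPM. Members in a gene body thus went with RNA of either direction.

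For sequence, 17 short motifs were counted on both strands of the central 300 bases of each peak. They were CAGGTAG (Zld), TAACNGT (Ovo), TTTATGG (Abd-B), GGTCACAC (M1BP), TATCGATA (DRE, the Dref element), CGATA (BEAF-32, contained in the DRE), GAGAGAG (for the GAGA factor), CAGCTG (an E-box), GTATTTT (Ohler6), CATCNCTA (Ohler7), TATAAA (the TATA box), TCAGT (initiator), TGATAC (Six4), TGCTGAC (Tj), AGATAA (for GATA factors), AGATGGCGC (CTCF) and TGCATAC (Su(Hw)). The Zld letters were in 58 members, 5.21% (interval 3.98 to 6.68%), against 2.11% of peaks within 2-fold (interval 1.89 to 2.36%) and 2.27% of all tested. Of the 414 peaks higher in SGP nuclei 0 had them, which allows up to 0.887%. Read the other way, of 369 tested peaks with the letters 15.7% were members, against 6.86% of all peaks. The share was 6.88% of members at gene starts and 4.66% of those away, against 2.19 and 2.07% of peaks within 2-fold, and it was above that of peaks within 2-fold in each class of height (3.76 against 2.34%, 6.57 against 2.13% and 4.32 against 1.89%, the last on 6 members). The 21 members at 4-fold or more held none of the 58, which allows up to 16.1% and so does not set them apart from the other members.

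The Ovo letters were in 117 members, 10.5% (interval 8.77 to 12.5%), in 7.88% of peaks within 2-fold (interval 7.45 to 8.33%) and in 4.83% of peaks higher in SGP nuclei (interval 2.98 to 7.36%). The difference lay mostly away from gene starts, at 10.3% of members and 6.34% of peaks within 2-fold, while at starts the shares were 11.2 and 10.2%. Letters of Abd-B, a Hox protein of the posterior abdomen, were in 5.75% of members and 6.03% of peaks within 2-fold but 12.1% of peaks higher in SGP nuclei. Ohler6 was in 5.39% of members (interval 4.14 to 6.88%) and 7.92% of peaks within 2-fold (interval 7.49 to 8.37%). Its intervals overlapped once place was held, at 9.06% (interval 5.95 to 13.1%) and 11.2% (interval 10.4 to 12.0%) at starts and 4.18% (interval 2.93 to 5.77%) and 5.78% (lower bound 5.30%) away from them. For promoter motifs such as M1BP (1.80 and 1.78%) and DRE (1.44 and 1.75%) members and peaks within 2-fold had overlapping intervals, and M1BP, like Zld, was in 0 of the 414 peaks higher in SGP nuclei. By place, M1BP was in 3.99% of members and 3.82% of peaks within 2-fold at starts. Away from starts it was in 1.08% (interval 0.493 to 2.03%) and 0.450% (interval 0.321 to 0.612%). Median GC content was similar in members (49.3%) and peaks within 2-fold (48.3%) but lower in peaks higher in SGP nuclei (45.0%). The motif shares were not adjusted for GC content.

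RNA of the factors did not all follow the shares of their letters. *ovo*, one of the genes that drew the pools, had 107 CPM in germ and 16.6 in SGP nuclei, and 264 and 3.52 CPM in germ and SGP cells of the 8- to 20-h library. *zld* RNA was lower in germ nuclei, at 58.8 against 152 CPM, and in germ cells, at 23.1 against 130 CPM, with 62.3 CPM in germ cells of the 0- to 8-h library. *Abd-B* had 25.7 and 92.7 CPM in germ and SGP nuclei.

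**Figure D4:**
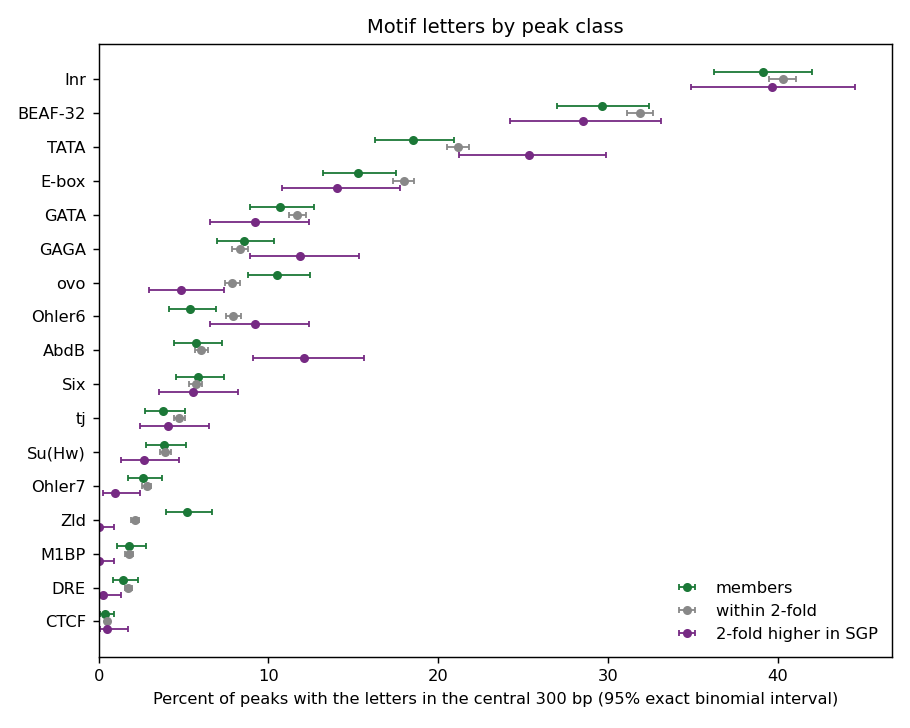
Percent of peaks whose central 300 bases held the letters of each of 17 motifs (x axis, with exact 95% binomial intervals), for 1113 members (green), 14709 peaks within 2-fold (grey) and 414 peaks 2-fold higher in SGP nuclei (purple). Zld and Ovo stand to the right of the grey points in members, and Abd-B in peaks higher in SGP nuclei.

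Genes at whose starts members lay had a higher ratio of germ to SGP RNA than genes at any tested start peak. Their median RNA level was lower in both pools, at 14.1 against 21.6 CPM in germ nuclei and 3.77 against 18.1 CPM in SGP nuclei. Taking for each member the gene with the nearest start within 250 bases gave 275 genes, of which 142 had at least 20 UMIs in both pools of nuclei together and did not belong to the rule. Their median log2 ratio of germ to SGP RNA (CPM plus 5) was 0.54 (interval over genes 0.40 to 0.64), against 0.14 over the 3992 such genes at any tested start peak. At least 2-fold higher in germ were 43 (30.3%, interval 22.9 to 38.5%), where 11.4% of all those genes were, and 5 (3.52%) were at least 2-fold lower, where 9.64% of all were. With 5 CPM added, a 2-fold lower call needs at least 5 SGP CPM, more than the median of 3.77 for genes at member starts. The shares of lower genes therefore cannot be set side by side. Genes at starts of peaks higher in SGP nuclei had a median of -0.97. The RNA and ATAC values came from the same nuclei, and RNA of genes outside the rule had not been used.

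In the 8- to 20-h library of whole cells, the same marker rule drew 4268 germ and 2418 SGP cells. There 164 genes at member starts were tested, with a median log2 ratio of 0.35 (interval over genes 0.20 to 0.71) against 0.13 over 4293 genes. At least 2-fold higher in germ cells were 56 (34.1%, interval 26.9 to 41.9%), against 19.3% of all, and 16 (9.76%) were at least 2-fold lower, against 18.6% of all. More of the genes at member starts were thus 2-fold higher than among all genes, while most differed by less than 2-fold. The 2-fold lower shares cannot be set side by side, because with 5 CPM added such a call needs at least 5 SGP CPM. The median SGP level was 1.92 CPM for genes at member starts and 22.4 over all. Genes passed on UMIs of both pools together, and germ cells held 94724349 UMIs and SGP cells 18769089. What part this minimum has in either share was not tested. Among named genes, *CG4415* had 633 CPM in germ and 15.6 in SGP cells, *RpL37b* 344 and 10.1, *CG18605* 223 and 5.43, *qin* 68.7 and 1.23 and *rhi* 41.3 and 1.33. At the start of *Gsc* a member of log2 1.84 went with 6.64 and 0.107 CPM. *E(spl)m7-HLH* had 74.0 and 40.4 CPM in germ and SGP cells of 8 to 20 h but 310 CPM in germ cells of 0 to 8 h, and *AttD*, which shares its start peak with the tRNA genes named above, had 0 UMIs in germ and SGP cells of 8 to 20 h.

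**Figure D5:**
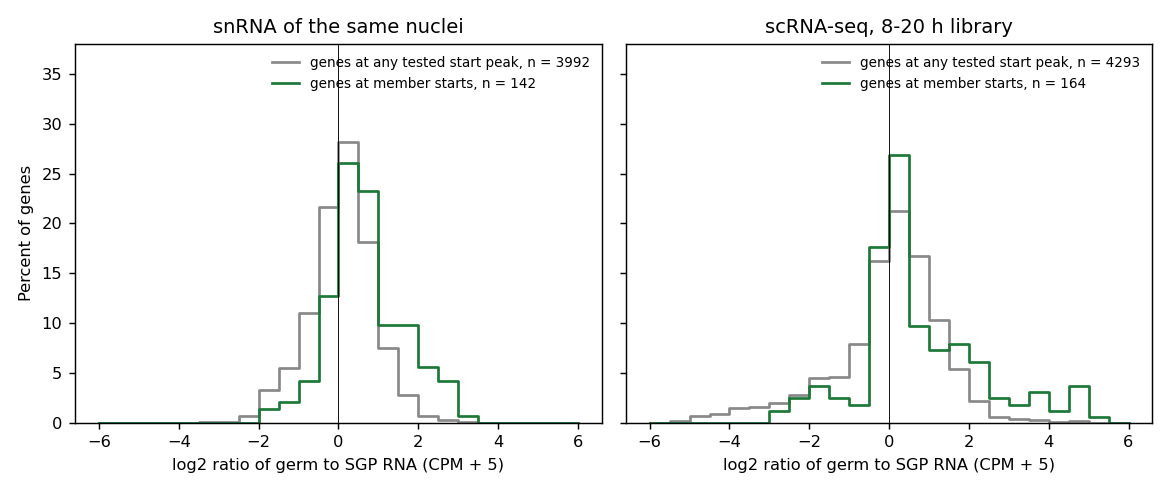
Distribution over genes of the log2 ratio of germ to SGP RNA (x axis, CPM plus 5) for genes at member starts (green) and genes at any tested start peak (grey), in the nuclei that gave the ATAC counts (left) and in the 8- to 20-h library of cells (right). Members' genes lie further to the right than the grey line, with medians of 0.54 against 0.14 in nuclei and 0.35 against 0.13 in cells.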

How the data were processed

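One library of vas-GFP nuclei (RNA and ATAC) and 2 libraries of vas-GFP cells (RNA) were used. The authors aligned reads to BDGP6, counted UMIs of cells with Cell Ranger 6.1.2 and nuclei with Cell Ranger ARC 1.0.0, removed doublets and weak nuclei, and called peaks over the whole library. They deposited unnormalized counts per peak or gene and nucleus or cell. The sources do not say if an ATAC count stands for a fragment or for one of its ends. Deep nuclei weighed more in pooled sums than shallow ones.

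Pools were summed and scaled to 1000000 counts over all peaks. Intervals of ratios and shares are exact (Clopper-Pearson, 95%), and those of medians over peaks or genes come from order statistics. With 1 library a group, no test across samples was run. Gene starts, gene bodies and transposons came from Ensembl annotation 115 of BDGP6, and sequences from the RefSeq genome of that assembly. A planned mixture of 2 normal distributions with separate SDs for the X-to-autosome ratio put 0 nuclei in its smaller class, so 1 common SD was used after leaving out the outer 1% on either side, with a posterior of 0.95.

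The text names members at starts of listed genes, the 10 with the highest ratio among those with at least 200 counts, the 5 with the most germ CPM, the 5 with the highest ratio away from starts, and 3 peaks on either side of the threshold. Members, lists and this rule were chosen with earlier results of these data known, and the members shown as sequences, the genes with most members and *Abd-B*, Ohler6 and transposon contrasts were singled out after their values were seen. The rule, intervals and motif counts were tested on simulated data. Python 3.11.15, numpy 2.4.6, pandas 2.3.3, scipy 1.17.1 and matplotlib 3.10.9 were used. Alternatives changed thresholds, depth minimums, scaling, pools, windows and added CPM.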

Additional observations from a re-analysis of the deposited data

How the results depend on the processing

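The number of members was 2190 with 1 CPM added, 687 with at least 100 counts, 3549 at 1.5-fold, 21 at 4-fold, 2092 with each nucleus weighted equally (923 of the 1113 among them) and 534 with high-X germ nuclei alone, a pool in which 11674 peaks passed the count minimum. With 4-fold members and with members of at least 100 counts, the share at gene starts was 28.6 and 32.9%, the median log2 ratio of germ to other nuclei 1.09 and 0.34, that of high-X to low-X nuclei reversed to 0.16 and was -0.056, and that of *pgc*-high to *CG4415*-high nuclei reversed to -0.30 (interval over members -0.45 to 0.04) and was 0.18. At 4-fold, the snRNA median was 1.39 (5 genes, interval 1.01 to 2.78) and the scRNA median 3.10 (4 genes, interval -0.56 to 4.80). The Zld share was 0%, with an upper bound of 16.1%. A 500-base window put 28.1% at starts. Zld letters in whole peaks reached 7.91% (all tested 4.85%), and at starts 6.88%. The median log2 ratio over members in shallow nuclei was 2.24, against 0.37 over all peaks tested. That value is the one given by 1 germ count against 0 SGP counts, so it does not measure the size of the difference. With 20 CPM added the median over members was 0.95, and summed counts gave 0.72. Against other nuclei the median log2 ratio was 0.33 with 1 CPM added, 0.33 without germ marker UMIs, 0.56 for hemocyte, 0.33 for muscle and 0.091 for epidermal nuclei. With at least 100 UMIs the snRNA and scRNA medians were 0.86 and 0.76, and with 1 CPM added 1.00 and 0.90. The causes of these shifts were not tested. Some alternatives were chosen after seeing the data: high-X or low-X germ nuclei alone, SGP nuclei with few germ UMIs (1437 members, 814 shared), marker pools, summed shallow counts and protein-coding starts. No paired analysis was possible because each group was 1 library. Low SGP counts limit every single ratio.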
